A study of Mus musculus with 79 samples.

Results

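The Dlk1-Dio3 domain is an imprinted region of mouse chromosome 12, and 5 of its genes were followed across the RNA data of a study of neuro-mesodermal progenitors. These genes are Meg3, Rian, Mirg, Rtl1 and Dlk1, taken by symbol from each of 3 tables of 23983 gene symbols, and all 5 symbols were found in every table. They were chosen because they had been seen near 0 in the libraries of the knockout lines. The contrast of T knockout with wild-type libraries therefore served to choose them and is described below with no test. In the T KO libraries this held for Meg3, Rian, Mirg and Rtl1, each at 0.368 FPKM or below, but not for Dlk1, at 10.2 and 4.73 FPKM. In the Tbx6+ libraries Rian was at 8.39 and 1.95 FPKM, above or near Dlk1 at 1.89 and 2.88 FPKM in the libraries titled KO and WT, so it was not near 0 there.

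Embryos were made by tetraploid complementation from embryonic stem cell lines, a method whose embryo proper derives from the injected stem cells. Cells of the caudal end were pooled, dissociated and sorted on T (Brachyury, the T-box factor of early mesoderm), Sox2 (a neural and progenitor factor) or Tbx6 (a T-box factor of paraxial mesoderm). The first table, called the knockout table, holds 6 libraries. They are T+ cells of T knockout embryos (T2J/2J, here T KO) at Theiler stages 12 and 13 (TS12, TS13), T+ cells of wild-type (WT) embryos at the same stages, and 2 libraries of Tbx6+ cells at TS14. The title of one Tbx6+ library says KO while its source name says wild type, and the title of the other says WT while its source name says Tbx6-/-, so both are named by their titles and no genotype is read from them. The second table, called the sort table, holds T+ Sox2+, T+ and Sox2+ cells of WT embryos at TS12, and the third holds 53 single cells, also WT, sorted as T+ Sox2+ at TS13. The strain label is C57BL/6J for both T KO and both Tbx6+ libraries, and C57BL/6N for the WT libraries of both bulk tables and for the cells. Between the T KO and WT libraries, T genotype and strain label cannot be told apart, since both differ between these groups. The labels do not say whether the stages of a group come from 1 stem cell line, nor what read out T, Sox2 or Tbx6 in the sort. Every bulk group is 1 library with no replicate.

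In an imprinted domain, genes are transcribed from the copy inherited from one parent. In the Dlk1-Dio3 domain the maternal copy gives the long noncoding RNAs Meg3, Rian and Mirg, of which Rian hosts small nucleolar RNAs and Mirg hosts microRNAs, and the paternal copy gives the protein-coding genes Dlk1, Rtl1 and Dio3. A methylated control region between Dlk1 and Meg3 and a second methylated region at the Meg3 promoter set which copy is used, and in mouse pluripotent stem cells the maternal RNAs are known to vary between lines.

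In RefSeq on GRCm38.p6 (mm10), all lie on chromosome 12, with Dlk1 at chr12:109452485-109463336, Meg3 at chr12:109540996-109571729, Rtl1 at chr12:109564900-109604418, Rian at chr12:109603945-109661716 and Mirg at chr12:109734981-109749458. A gap of 77.7 kb separates the end of Dlk1 from the start of Meg3. The interval from the start of Dlk1 to the end of Dio3 spans 829 kb. The windows at the annotated starts of the members that RefSeq's promoter table holds are shown because Meg3, Rian and Mirg moved together in the libraries described below and because methylation at CG dinucleotides controls the domain. Each window runs from 250 bases before to 50 bases after the start that the promoter table gives, on the plus strand, and capitals mark CG. For Meg3, Rian and Mirg that start is the first base of the gene span above, while for Dlk1 it lies downstream of that base and the window does not reach it.
Meg3 (chr12:109540746-109541045): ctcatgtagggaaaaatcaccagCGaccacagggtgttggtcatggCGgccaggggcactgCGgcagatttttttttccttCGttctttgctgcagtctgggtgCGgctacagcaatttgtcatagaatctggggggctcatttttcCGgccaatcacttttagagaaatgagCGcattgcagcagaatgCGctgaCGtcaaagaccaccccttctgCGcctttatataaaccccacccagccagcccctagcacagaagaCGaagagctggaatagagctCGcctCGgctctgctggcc
Rian (chr12:109603695-109603994): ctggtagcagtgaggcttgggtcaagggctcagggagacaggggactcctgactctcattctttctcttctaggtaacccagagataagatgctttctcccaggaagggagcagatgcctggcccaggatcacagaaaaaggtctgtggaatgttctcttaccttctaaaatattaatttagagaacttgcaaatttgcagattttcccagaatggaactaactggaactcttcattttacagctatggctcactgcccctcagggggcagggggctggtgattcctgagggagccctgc
Mirg (chr12:109734731-109735030): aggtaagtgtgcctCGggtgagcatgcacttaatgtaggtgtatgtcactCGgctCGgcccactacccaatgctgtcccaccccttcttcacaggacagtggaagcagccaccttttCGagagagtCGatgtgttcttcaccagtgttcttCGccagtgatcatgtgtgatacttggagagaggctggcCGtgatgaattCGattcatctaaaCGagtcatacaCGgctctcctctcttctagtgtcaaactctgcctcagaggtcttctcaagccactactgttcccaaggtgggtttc
Dlk1 (chr12:109452573-109452872): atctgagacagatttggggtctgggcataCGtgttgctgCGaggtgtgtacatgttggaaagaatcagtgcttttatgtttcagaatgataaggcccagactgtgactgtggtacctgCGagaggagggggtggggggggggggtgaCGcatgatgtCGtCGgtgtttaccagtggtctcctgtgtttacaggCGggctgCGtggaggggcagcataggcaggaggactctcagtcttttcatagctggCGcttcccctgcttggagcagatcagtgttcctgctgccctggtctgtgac
The Meg3 window held 13 CG dinucleotides, the Mirg window 10, the Dlk1 window 9 and the Rian window 0, against a median of 7 over 32851 RefSeq windows of this length. The share of all windows with at least as many CG was 37.9% for Meg3, 43.5% for Mirg and 45.8% for Dlk1. The palindrome TGACGTCA, the cAMP response element, lay in the Meg3 window with its first base 57 bases before the start, and 1.79% of all windows held it. The motif TGCCGC, searched on both strands and the core of the sites bound by the imprint protector Zfp57 when methylated, matched 1 time in the Meg3 window and in 11.6% of all windows. Neither motif was found in the other windows shown, and a match describes the letters only. A second annotated Meg3 start had 1 CG in its window.

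All values are FPKM, fragments per kb of transcript, scaled to the mapped fragments of each library, as the authors deposited them. Depth, estimated from the steps between low values, was 20.8 to 43.5 M fragments for the bulk libraries, so that 5 FPKM on a 1 kb transcript carried a counting error of 6.78% to 9.81%. That error does not cover embryos, sorts or library preparation. T itself was at 4.61 and 3.32 FPKM in T KO and at 69.8 and 76.4 FPKM in WT T+ cells at TS12 and TS13, which matches the labels. The Tbx6+ libraries, of another sort and stage but with the strain label of T KO, had T at 471 FPKM (titled KO) and 166 FPKM (titled WT). Tbx6 itself was at 10.2 FPKM (titled KO) and 31.5 FPKM (titled WT), and no genotype is read from these values. The WT library of TS12 stood apart in 1 respect: 1063 of 1499 sensory receptor genes were above 0 in it, at a mean of 0.234 FPKM, against 24 to 37 in each other bulk library. With the WT library of the other stage in its place, the difference of each member kept its sign at both stages. In bulk libraries, fewer cells with an RNA and less of it per cell cannot be told apart.

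Among the maternal RNAs, Meg3 was near 0 in T KO cells and among the well-expressed genes in WT cells. Meg3 was at 0.0629 FPKM in T KO and 22.1 FPKM in WT T+ cells at TS12, and at 0.0785 FPKM in T KO and 20.0 FPKM in WT T+ cells at TS13. The WT libraries differed little between stages. The T KO values correspond to 1.31 and 2.47 fragments per kb of transcript, against 484 and 800 in WT, so the ratios of WT to T KO FPKM, 351 at TS12 and 254 at TS13, rest on very few fragments in T KO. On the log2(FPKM + 1) scale, which understates the change of low genes, the difference T KO minus WT was -4.44 at TS12 and -4.28 at TS13.

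Rian, the next RNA along the maternal strand, was the most abundant member in WT T+ cells of the knockout table. It was at 0.215 FPKM in T KO and 107 FPKM in WT T+ cells at TS12, and at 0.177 FPKM in T KO and 110 FPKM in WT T+ cells at TS13. The T KO libraries were low at both stages and the WT libraries high, with 4.47 and 5.59 fragments per kb in T KO against 2355 and 4407 in WT. The log2 difference was -6.48 at TS12 and -6.56 at TS13.

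Mirg, the host of the distal microRNA cluster, followed the same order at a lower level. It was at 0.0741 FPKM in T KO and 16.4 FPKM in WT T+ cells at TS12, and at 0.196 FPKM in T KO and 11.9 FPKM in WT T+ cells at TS13. The log2 differences were -4.02 at TS12 and -3.44 at TS13.

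Rtl1, a gene derived from a retrotransposon and needed in the placenta, is a textbook paternal gene with a maternal antisense transcript. It was at 0.368 FPKM in T KO and 8.29 FPKM in WT T+ cells at TS12, and at 0.224 FPKM in T KO and 6.88 FPKM in WT T+ cells at TS13. On the log2 scale the differences were -2.76 at TS12 and -2.69 at TS13. The library kit kept strand, but whether the FPKM were counted by strand is not given in the sources used here. Reads of Rtl1 and of its antisense transcript can therefore not be told apart. The Rtl1 span also overlaps the end of Meg3 and the start of Rian, and whether their reads entered the Rtl1 row is not known. The row 6430411K18Rik, which overlaps Rtl1, was at 0.732 FPKM in T KO and 9.94 FPKM in WT at TS12, and at 0.386 FPKM in T KO and 7.55 FPKM in WT at TS13.

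Dlk1, a paternally expressed membrane protein related to the Notch ligands, did not share this pattern. It was at 10.2 FPKM in T KO and 3.50 FPKM in WT T+ cells at TS12, and at 4.73 FPKM in T KO and 4.35 FPKM in WT T+ cells at TS13. T KO was the higher at TS12, by 1.32 on the log2(FPKM + 1) scale, and the difference at TS13 was 0.10. With 5 in place of 1 as the added constant the TS12 difference was 0.84, under the 2-fold line.

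**Figure D1:**
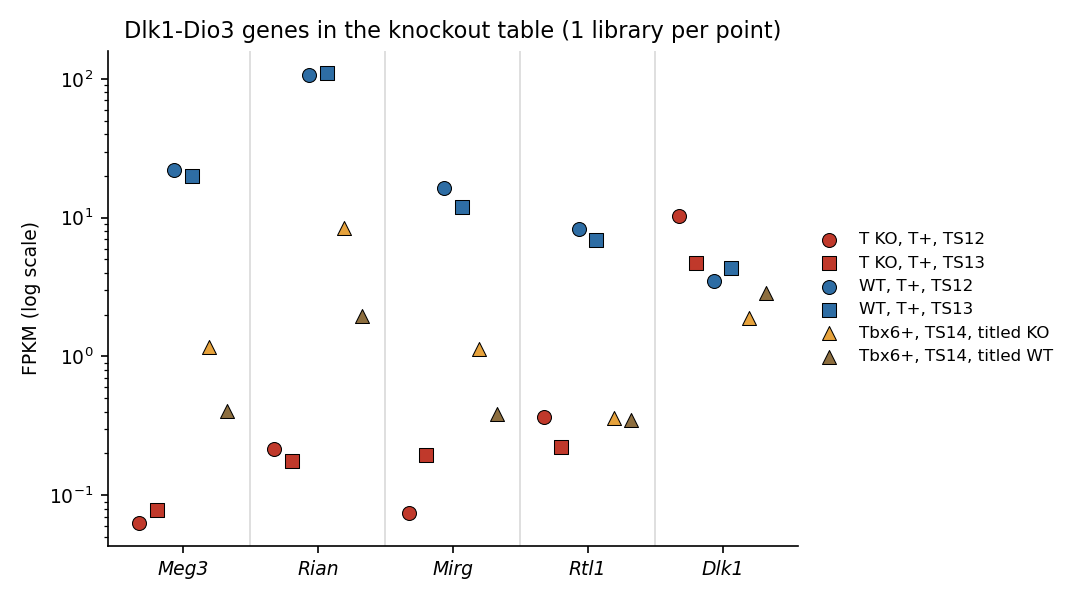
FPKM (log axis) of the 5 genes in the 6 libraries of the knockout table, 1 point per library: red for T KO T+ cells, blue for WT T+ cells (circles TS12, squares TS13), triangles for the Tbx6+ pair at TS14. For Meg3, Rian, Mirg and Rtl1 the T KO and Tbx6+ points lie below the WT T+ points, while for Dlk1 the 6 points lie between 1.89 and 10.2 FPKM.

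At least 2-fold lower means a log2(FPKM + 1) difference of -1 or below, counted over genes that reached 5 FPKM in either library. By this count 4 of 5 members were lower in T KO at TS12 and 4 of 4 compared at TS13. Of all genes compared, 1.06% of 8090 were lower at TS12 and 1.44% of 8180 at TS13. Dlk1 was counted as higher at TS12, as were 0.939% of genes, and it did not reach 5 FPKM at TS13, where 1.19% of genes were higher. The members were chosen on this contrast, so nothing is read from these counts. The choice names no threshold. The highest level in the 4 libraries labelled C57BL/6J was 0.368 FPKM for Rtl1, 1.13 FPKM for Mirg, 1.16 FPKM for Meg3, 8.39 FPKM for Rian and 10.2 FPKM for Dlk1.

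Expressed genes on both sides of the domain did not share the difference. Of 24 flanking rows, up to 1200 kb before the Dlk1 start and 700 kb beyond Dio3, 9 reached 5 FPKM in the knockout table: Eml1, Evl, Yy1 and Wars before Dlk1, and Ppp2r5c, Dync1h1, Hsp90aa1, Wdr20 and Cinp beyond Dio3. Their T KO minus WT differences ran from -0.34 to 0.28 at TS12 and from -0.22 to 0.46 at TS13, and 0 of 9 passed 1 in size. Yy1, a zinc-finger regulator, was at 51.1 FPKM in T KO and 43.7 FPKM in WT at TS12, and Hsp90aa1, a chaperone, at 1157 FPKM in T KO and 1131 FPKM in WT. Within the domain, Dio3, the thyroid hormone deiodinase at its far end, was at 0.154 FPKM in T KO and 0.512 FPKM in WT at TS12, and at 0.340 FPKM in T KO and 0.134 FPKM in WT at TS13, too low for a comparison.

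**Figure D2:**
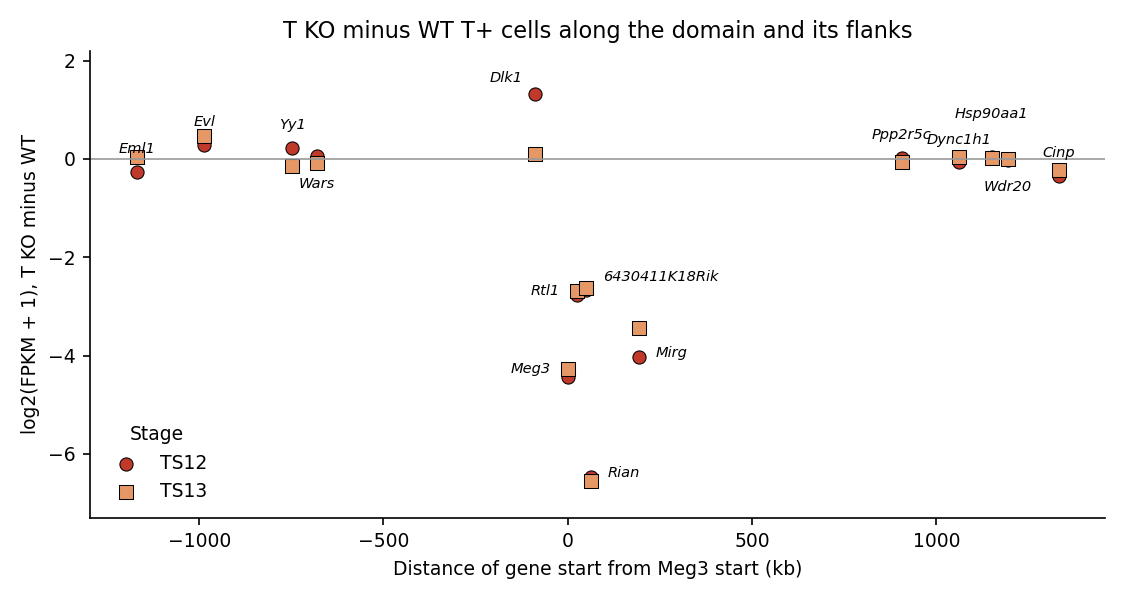
Difference of log2(FPKM + 1), T KO minus WT T+ cells, against the distance of each gene's start from the Meg3 start in kb, for the rows that reached 5 FPKM in the knockout table, small nucleolar RNAs left out (circles TS12, squares TS13). Meg3, Rtl1, 6430411K18Rik, Rian and Mirg lie between -6.56 and -2.62, and the 9 flanking genes between -0.34 and 0.46.

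Small RNA rows of the domain were mostly listed at 0. The 7 small nucleolar RNA rows were at 0 in all 4 libraries labelled C57BL/6J, and 4 of them were above 0 in WT T+ cells. AF357425 was at 0 in both T KO libraries and at 11.2 FPKM (TS12) and 22.1 FPKM (TS13) in WT, and AF357355 at 0 in both T KO libraries and at 17.3 and 21.8 FPKM in WT. All 7 were at 0 in the sort table too, where Rian itself was well expressed, so a 0 in these rows does not show that the host RNA was low. Of the 61 microRNA rows of the domain, 58 were at 0 in all 9 bulk libraries. Of all 1101 microRNA rows, 3.36% were above 0 in 1 or more libraries of the knockout table, so these libraries give no reading of the mature microRNAs.

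In the Tbx6+ libraries the maternal RNAs lay between their T KO and WT T+ levels, under either title. Meg3 was at 1.16 FPKM in the library titled KO and 0.402 FPKM in the library titled WT. Rian was at 8.39 FPKM in the library titled KO and 1.95 FPKM in the library titled WT, and Mirg at 1.13 FPKM titled KO and 0.382 FPKM titled WT. The 3 RNAs were 2.89, 4.30 and 2.96 times as high in the library titled KO, and both libraries lay above both T KO libraries and below both WT T+ libraries. Rtl1 was at 0.360 FPKM titled KO and 0.346 FPKM titled WT, with no gap, and Dlk1 at 1.89 FPKM titled KO and 2.88 FPKM titled WT. Among the 5, Rian alone reached 5 FPKM in 1 of both and counted as higher in the library titled KO, by 1.67 on the log2 scale, where 2.55% of all genes compared were higher and 1.55% lower.

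Markers of other cell types differed within the same Tbx6+ pair. The 8 blood markers summed to 258 FPKM in the library titled KO and 0.905 FPKM in the library titled WT. The globins Hbb-y, Hbb-bh1 and Hba-x held most of the sum titled KO, at 175, 52.7 and 27.1 FPKM. Gata1 and Slc4a1, among those at 0 in the library titled WT, were at 0.0967 and 1.09 FPKM in the library titled KO. The 9 axial progenitor markers summed to 1115 FPKM in the library titled KO and 359 FPKM in the library titled WT, and 7 of 8 compared were higher. The 10 presomitic and paraxial mesoderm markers summed to 86.9 FPKM in the library titled KO and 294 FPKM in the library titled WT. Their part in the Rian difference was not tested.

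Grouped by strain label, the 4 C57BL/6J libraries lay at least 2-fold below both C57BL/6N libraries of the knockout table for 10 of 8743 genes, 0.114%, and at least 2-fold above them for 3 genes, 0.0343%. Meg3, Rian, Mirg, Rtl1 and 6430411K18Rik were among the 10, which is a description since the members were chosen for low values in these libraries. Others found by the same count included the globins Hbb-bs and Hba-a2, the complement regulator Cd59a and the mesoderm factor Foxf1. Cd59a was at 2.06 and 2.13 FPKM in T KO and at 5.99 and 6.48 FPKM in WT T+ cells at TS12 and TS13, and at 1.25 FPKM in the Tbx6+ library titled KO and 1.28 FPKM in the one titled WT. The 3 genes above were the Y-linked Eif2s3y, Ddx3y and Uty.

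The Y-linked genes moved with the members in the opposite direction. Eif2s3y was at 19.8 and 32.1 FPKM in T KO and at 0.0257 and 0 FPKM in WT T+ cells, and at 13.7 FPKM in the Tbx6+ library titled KO and 43.96 FPKM in the one titled WT. It was at 0 in the 3 sort libraries and in the 53 cells. The libraries with high Meg3, Rian and Mirg therefore had Eif2s3y near 0, and those with low values had it above 13 FPKM. Xist, the RNA of X inactivation, was at 0.237 FPKM or below in every bulk library and above 0 in 2 of the 53 cells. The sex of the embryos is therefore not read from these rows. Y-linked expression, strain label and T genotype differ together between the T KO and WT libraries and cannot be told apart.

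H19, the maternally expressed RNA of another imprinted domain, was low in T KO but did not follow the strain label. It was at 7.95 FPKM in T KO and 338 FPKM in WT T+ cells at TS12, and at 13.1 FPKM in T KO and 578 FPKM in WT T+ cells at TS13. In the Tbx6+ pair, under the same strain label as T KO, it was at 1036 FPKM titled KO and 43.2 FPKM titled WT, so the highest H19 and low Meg3 stood in 1 library.

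T KO was compared with WT over both stages by limma on log2(FPKM + 1) with stage as a term. The members were among the genes fitted and adjusted, so the 8431 genes tested are not limited to those outside the choice. Limma results of single genes and lists are given only for genes outside the choice. Of 8431 genes 53 fell (0.629%) and 39 rose (0.463%) at a Benjamini-Hochberg adjusted p of 0.05, and 1032 had an unadjusted p under 0.05. The test has 1 residual degree of freedom and measures how alike the difference was at both stages, not the spread between embryos. Empirical Bayes draws each gene's variance toward that of other genes, so the p-values also rest on this shared variance. The median difference of all genes tested was -0.0036. Without the stage term 8 genes fell and 3 rose. Of the genes named in the next paragraphs, H19, Dll1 and Msgn1 still passed then, with limma's adjusted p of 0.00347, 0.00452 and 0.0112. Dppa3 at 0.0638, Cyp26a1 at 0.0638, Foxf1 at 0.0639, Meox1 at 0.0734, Foxc1 at 0.163, Nkx1-2 at 0.163, Pcdh19 at 0.192, Sox3 at 0.200, Hes3 at 0.203, Dll3 at 0.285, Wnt8a at 0.517 and Plagl1 at 0.618 did not.

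Most regulators of imprints did not pass the test. Of 22 listed, 19 were tested, 1 fell and 0 rose, with a median difference of 0.14. The one that fell was Dppa3, a maternal factor that protects imprints in the early embryo. It was at 1.23 and 1.01 FPKM in T KO and at 8.19 and 8.39 FPKM in WT T+ cells at TS12 and TS13, a log2 difference of -2.13 ± 0.28 (SE) with limma's adjusted p = 0.00576. Dppa3 did not follow the strain label either, being at 0 FPKM in the Tbx6+ library titled KO and 8.21 FPKM in the one titled WT. In the sort table Dppa3 was at 0 FPKM in WT T+ cells of TS12, so its WT level differed between the tables. Zfp57, which keeps imprints methylated, was at 13.7 and 18.5 FPKM in T KO and at 11.9 and 13.5 FPKM in WT, a difference of 0.31 with limma's adjusted p = 0.460. Its partner Trim28 was at 178 and 152 FPKM in T KO and at 172 and 165 FPKM in WT, a difference of -0.04 with limma's adjusted p = 0.951.

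Of 28 imprinted genes of other domains, 22 were tested, 1 fell and 1 rose, with a median difference of 0.08. H19 fell by 5.30 ± 0.15 (SE) on the log2 scale with limma's adjusted p = 6.98e-08. Its level in WT T+ cells of TS12 was 338 FPKM in the knockout table but 9.69 FPKM in the sort table. Plagl1, a zinc-finger regulator of fetal growth, rose by 0.99 ± 0.18 (SE), with limma's adjusted p = 0.0298, at 6.92 and 22.0 FPKM in T KO and 3.32 and 9.75 FPKM in WT. Igf2, the growth factor paired with H19, was at 287 and 367 FPKM in T KO and at 185 and 262 FPKM in WT. The 8 flanking genes tested by limma had 0 that fell and 0 that rose, with a median of -0.01.

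Among 10 relatives of Dlk1 and Notch receptors, 6 were tested, 2 fell and 0 rose. Both are Notch ligands: Dll1 fell by 2.75 ± 0.17 (SE) with limma's adjusted p = 3.92e-05, and Dll3 fell by 1.34 ± 0.24 (SE) with limma's adjusted p = 0.0339. They are also genes of presomitic mesoderm. Of the presomitic and paraxial mesoderm markers 4 of 5 tested fell, Msgn1, Meox1, Foxc1 and Pcdh19, and their summed level over 10 genes was 22.0 and 14.7 FPKM in T KO against 122 and 116 FPKM in WT T+ cells. Markers of presomitic mesoderm thus differed between T KO and WT libraries, which also differ in strain label and Y-linked expression. The part of these markers in the members' levels was not tested.

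Genes of other marker lists passed the test too. Of the axial progenitor markers 1 of 8 tested fell, the retinoic acid-degrading enzyme gene Cyp26a1, by a log2 difference of -2.67 with limma's adjusted p = 0.00208. Of the same 8, 2 rose, the homeobox gene Nkx1-2 by 1.16 with limma's adjusted p = 0.00491 and the Wnt ligand gene Wnt8a by 1.52 with limma's adjusted p = 0.0299. Of the lateral plate and intermediate mesoderm markers 1 of 8 tested passed, Foxf1, which fell by 1.24 ± 0.15 (SE) with limma's adjusted p = 0.00422, and the 12 genes summed to 104 and 68.9 FPKM in T KO and 131 and 124 FPKM in WT. Blood markers had 0 of 6 and endothelium markers 0 of 4 tested that fell or rose. Of the neural markers 2 of 4 tested rose, Sox3 and Hes3. Notochord and node markers had 0 of 1 and fibroblast markers 0 of 2 tested that fell or rose. Extraembryonic endoderm markers summed to at most 4.61 FPKM in any of the 6 libraries, with Afp at 0 in both T KO libraries and in the WT library of TS13.

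Across the 6 libraries of the knockout table, genes were ranked by Pearson's r with each member on log2(FPKM + 1), among 8743 genes. Closest to Meg3 were Mirg at 0.998, Rtl1 at 0.986, 6430411K18Rik at 0.986, Rian at 0.981 and 2510039O18Rik at 0.980. Among the genes closest to Rtl1 were 6430411K18Rik at 0.996, Rps4x at 0.995, Meg3 at 0.986 and Mirg at 0.984. With 6 libraries in which 2 are high and 4 low, any gene with that split scores high, and Rps4x did so with 1399 and 1386 FPKM in T KO against 1540 FPKM in both WT libraries. The members were chosen for low values in these libraries, so high coefficients between them follow from the choice. These coefficients are a description and carry no p.

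Dlk1 had other close genes than the other members. They were Sppl3 at 0.994, the RNA polymerase subunit gene Polr2a at 0.989, Znrf1 at 0.989, Rc3h1 at 0.989 and the deadenylation scaffold gene Cnot1 at 0.988. Polr2a was at 46.98 and 23.9 FPKM in T KO and at 18.8 and 19.02 FPKM in WT T+ cells at TS12 and TS13. All 5 were highest in the T KO library of TS12, as Dlk1 was. What this library shares beyond them was not tested.

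In the WT fractions sorted at TS12, all 5 genes were expressed, and Dlk1 alone differed by 2-fold or more on the log2(FPKM + 1) scale. Meg3 was at 39.1 FPKM in T+ Sox2+ cells, 50.9 FPKM in T+ cells and 31.5 FPKM in Sox2+ cells. Rian was at 39.4 FPKM in T+ Sox2+ cells, 38.9 FPKM in T+ cells and 23.2 FPKM in Sox2+ cells. Mirg was at 9.92 FPKM in T+ Sox2+ cells, 13.5 FPKM in T+ cells and 9.78 FPKM in Sox2+ cells. Sox2+ cells were lowest for all 3 RNAs, and T+ cells highest for Meg3 and Mirg, but no pair of fractions differed by more than 0.74 on the log2(FPKM + 1) scale. Rtl1 was at 2.81 FPKM in T+ Sox2+ cells, 4.13 FPKM in T+ cells and 2.98 FPKM in Sox2+ cells, and stayed under 5 FPKM throughout. With 1 library a fraction, these small gaps have no error to be set against.

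Dlk1 was at 8.97 FPKM in T+ Sox2+ cells, 21.1 FPKM in T+ cells and 4.31 FPKM in Sox2+ cells. The order was thus T+, T+ Sox2+, Sox2+, with the T+ fraction well above the rest. T+ Sox2+ minus T+ was -1.14, T+ Sox2+ minus Sox2+ was 0.91 and T+ minus Sox2+ was 2.05. RNA of T did not have the order of Dlk1, at 341 FPKM in T+ Sox2+, 141 FPKM in T+ and 192 FPKM in Sox2+ cells. Sox2 had the reverse order of Dlk1, at 16.4, 2.82 and 50.5 FPKM in T+ Sox2+, T+ and Sox2+ cells. Against T+ cells 1 of 4 members compared was lower in T+ Sox2+ cells, and 1.81% of all genes were lower and 1.29% higher. Against Sox2+ cells 0 of 4 were lower or higher in T+ Sox2+ cells, where 1.4% of all genes were lower and 1.52% higher. For T+ against Sox2+ cells 1 of 4 was higher, and 3.59% of all genes were higher and 3.21% lower.

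The summed levels of lateral plate and of endothelium markers had the order of Dlk1 across these fractions, and that of blood markers did not. The 12 lateral plate and intermediate mesoderm markers summed to 35.7 FPKM in T+ Sox2+ cells, 199 FPKM in T+ cells and 15.7 FPKM in Sox2+ cells, and all 8 compared were lower in the T+ Sox2+ fraction than in the T+ fraction. The 8 endothelium markers summed to 4.56, 38.4 and 3.29 FPKM in T+ Sox2+, T+ and Sox2+ cells, and the 8 blood markers to 112, 12036 and 231 FPKM, with all 8 blood markers above 0 in each fraction and T+ Sox2+ cells the lowest. Of the 8 endothelium markers, 0 reached 5 FPKM in T+ Sox2+ or Sox2+ cells. Between these fractions Cdh5, Pecam1 and Tek were lower in T+ Sox2+ cells, and Kdr, Tie1, Etv2, Erg and Sox17 higher. The part of all these markers in the Dlk1 difference was not tested. Of 18 other imprinted genes compared, 8 were lower in the T+ Sox2+ fraction than in the T+ fraction and 0 higher, namely H19, Igf2, Igf2r, Airn, Peg3, Mest, Peg10 and Phlda2, with a median of -0.74. Igf2 was at 759 FPKM in T+ Sox2+ cells, 2148 FPKM in T+ cells and 489 FPKM in Sox2+ cells, and H19 at 2.36, 9.69 and 2.03 FPKM, the order of Dlk1 in both.

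**Figure D3:**
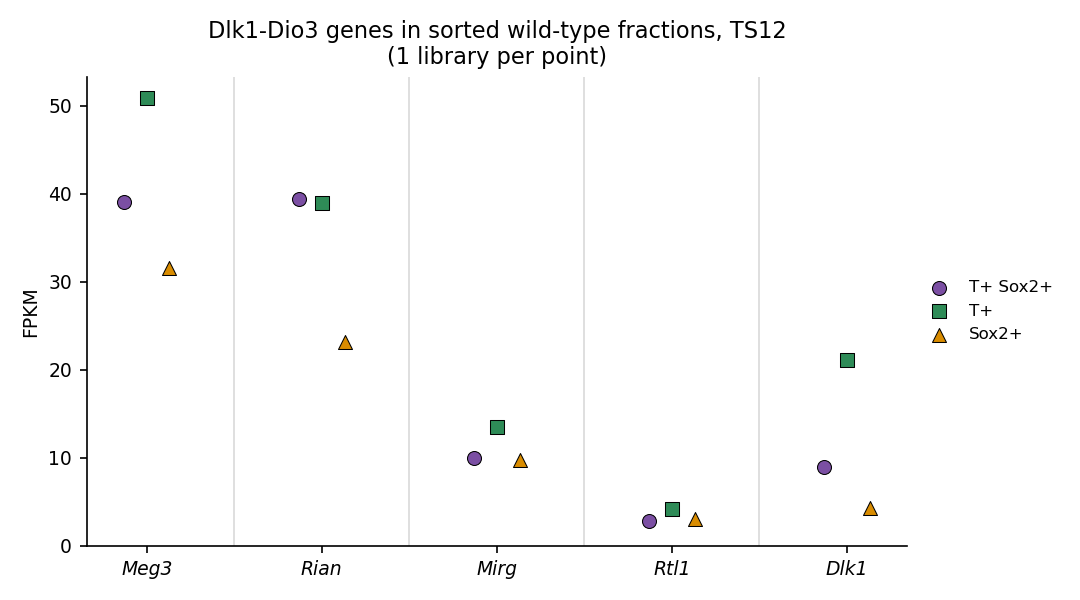
FPKM of the 5 genes in the sorted WT fractions of TS12, 1 point per library (circles T+ Sox2+, squares T+, triangles Sox2+ cells). Dlk1 spans 4.31 to 21.1 FPKM, with T+ cells highest, while each noncoding RNA and Rtl1 spans less than 2-fold.

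The share of each maternal RNA differed between the tables. Of the summed FPKM of Meg3, Rian and Mirg, Rian made up 73.6% and 77.5% in the WT T+ libraries of the knockout table. In the sort table, it made up 44.6% in T+ Sox2+ cells, 37.7% in T+ cells and 35.9% in Sox2+ cells. For T+ WT cells of TS12, which both tables hold, the ratio of Rian to Meg3 was 4.87 in the knockout table and 0.765 in the sort table. Library kit, cell input and table scaling differ together between these tables and cannot be told apart. In the Tbx6+ pair the ratio was 7.22 titled KO and 4.85 titled WT, close to or above the 4.87 and 5.51 of the WT T+ libraries of the same table, although the summed level was 10.7 and 2.74 FPKM there against 146 and 142 FPKM. In T KO, where the 3 RNAs summed to 0.352 and 0.451 FPKM, shares rest on a few fragments per kb and are not compared.

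**Figure D4:**
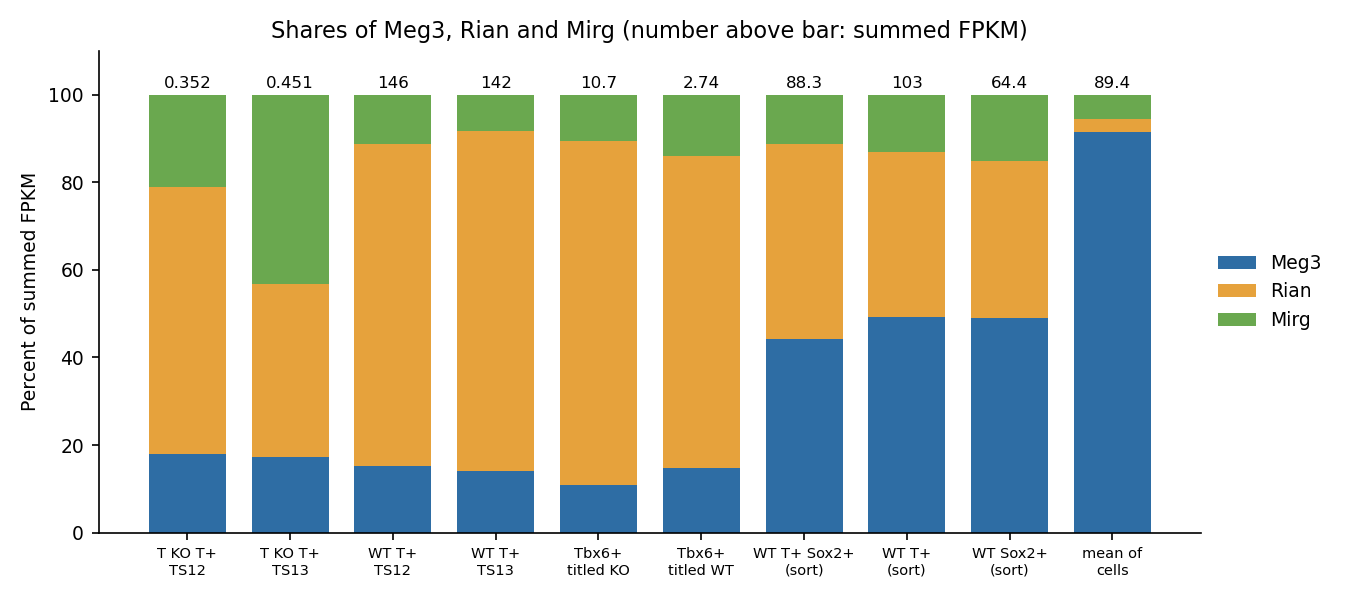
Share of Meg3, Rian and Mirg in their summed FPKM, in percent, for each bulk library and for the mean over the 53 cells, with the summed FPKM above each bar. Rian holds the largest share in the WT T+ and Tbx6+ libraries of the knockout table and Meg3 in the cells, at 91.5%.

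In single WT T+ Sox2+ cells of TS13, Meg3 was above 0 in 53 of 53 cells. It ranged from 1.83 to 400 FPKM with a median of 61.8 FPKM and a mean of 81.8 ± 71.1 FPKM (SD over cells), rank 1119 of 21555 genes by mean. Meg3 was thus one of 1113 genes found in every cell, and its spread over cells was nearly as large as its mean. The depth of each cell is unknown, and no embryo is named for a cell, so the cells stand as 1 sample.

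The other members were found in fewer cells. Rian was above 0 in 18 of 53 cells, 33.96% with an exact 95% binomial interval of 21.5% to 48.3%, with a highest value of 22.1 FPKM. Mirg was above 0 in 17 cells, 32.1% (19.9% to 46.3%), with a highest value of 68.0 FPKM. Rtl1 was above 0 in 8 cells, 15.1% (6.75% to 27.6%), and 1 cell held 72.6% of its summed FPKM. These intervals cover the sampling of cells only. Dlk1 was above 0 in 27 cells, 50.9% (36.8% to 64.9%), at a median of 0.125 FPKM and a highest value of 18.7 FPKM. Low values made up much of these counts, as 16 cells reached 1 FPKM of Dlk1 and 8 cells 5 FPKM, and 9 cells reached 5 FPKM of Rian. Dio3 was at 0 in all 53 cells.

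**Figure D5:**
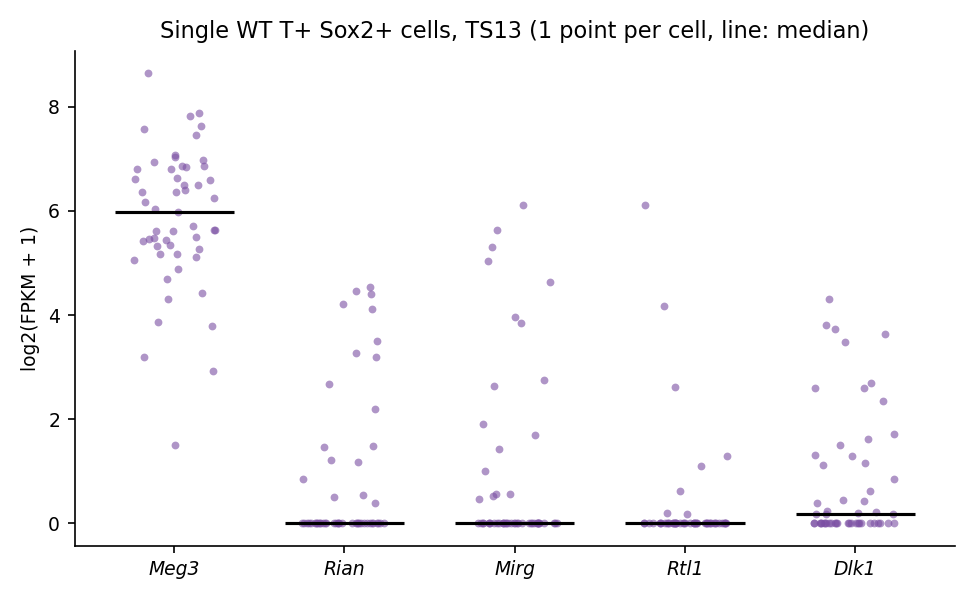
Level of the 5 genes as log2(FPKM + 1) in the 53 single WT T+ Sox2+ cells of TS13, 1 point per cell with random horizontal spread, and the median as a line. Every cell has Meg3 above 0, while the medians of Rian, Mirg and Rtl1 are at 0 and that of Dlk1 is at 0.125 FPKM.

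By cell, 15 cells had Meg3 alone, 17 had 1 other member, 12 had 2 others, 7 had 3 others and 2 had all 5. The mean over cells gave a Rian to Meg3 ratio of 0.0326, against 1.01 in the bulk T+ Sox2+ library of TS12. Stage, capture method, library kit and table differ together between these and cannot be told apart. Rian and Mirg were both above 0 in 9 cells, with Spearman's rho of 0.32 over 53 cells, and rho was 0.13 for Meg3 with Rian and 0.26 for Meg3 with Mirg. Mirg and Dlk1 had a rho of 0.34, Meg3 and Dlk1 0.24. The number of genes above 0 in a cell, which ran from 4514 to 10177, had a rho of 0.45 with Dlk1, 0.43 with Rian and 0.11 with Meg3. Cells with more genes found thus had Dlk1 and Rian above 0 more often, and these weak coefficients are a description only.

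With the genes of the fate choice, the members had coefficients of at most 0.31 in size over the 53 cells. For T, rho ran from -0.12 with Mirg to 0.09 with Meg3. For Sox2 it ran from -0.22 with Rtl1 to -0.07 with Rian, and for Tbx6 from 0.01 with Rian to 0.23 with Dlk1. For Msgn1 it ran from -0.16 with Meg3 to 0.31 with Rtl1, where 5 cells had both above 0, for Nkx1-2 from -0.01 with Rtl1 to 0.07 with Rian, and for Sox3 from -0.09 with Rian to 0.10 with Dlk1. Genes above 0 in at least 20% of cells, 9615 in all, were ranked by rho with each member found in as many. The closest to Meg3 was Smco1 at 0.58, to Rian Foxo1 at 0.54, to Mirg Ripk1 at 0.49 and to Dlk1 Mcph1 at 0.64, and no member was among the 5 closest genes of another.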

How the data were processed

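RNA of 9 bulk libraries and 53 single cells was used, of 79 samples in all; 12 chromatin accessibility and 5 chromatin immunoprecipitation samples were not analysed here. The labels name 55 capture sites with cells. Per the labels' protocols, the knockout table used the strand-specific ScriptSeq v2 kit on ribosome-depleted RNA, the sort table TotalScript on fewer cells, and the cells a Fluidigm C1 chip. The authors deposited FPKM, with 1 value for each symbol. Per the submitters' processing notes, reads were handled on mm10 with SAMtools, Picard 1.103, bedtools 2.23.0, Bowtie 1.1.2 and TopHat2 2.1.0, and Cuffdiff or Cuffnorm of Cufflinks 2.2.1, with settings not given in the sources used here.

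As FPKM are normalised values, tests for counts were not used. Each table was treated as having its own normalisation, and differences of log2(FPKM + 1) were made within 1 table. Small RNA rows, numbered Gm models, mitochondrial genes, ribosomal protein pseudogenes and joined symbols were left out of counts over all genes, leaving 21555 symbols. T, Sox2 and Tbx6, on which cells were sorted, were also left out of those counts. Depth was estimated from FPKM steps of short coding genes: 37 to 953 low genes per bulk library lay within a relative tolerance of 0.0003 of whole fragments, against 5 to 27 with lengths shuffled. The cells' depth is unknown. The 4 T+ libraries entered limma 3.58.1 (R 4.3.3, empirical Bayes with trend) for genes that reached 5 FPKM, with stage and genotype as terms and Benjamini-Hochberg adjustment. This fit was tested on simulated data. Bulk groups have 1 library, and p-values measure only the spread between stages, with variance shared across genes. The members and lists were chosen with earlier results of these data known. All 5 members are named, with listed genes and the 5 genes most like each member, except that some genes are not reported here. Alternatives were other added constants, filters, upper-quartile scaling, the WT library of the other stage, no stage term, detection at 1 or 5 FPKM, and Pearson's r over cells. Promoter windows come from RefSeq on GRCm38.p6, which held 4 of 5 members.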

Additional observations from a re-analysis of the deposited data

How the results depend on the processing

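Without the stage term limma had 8 genes that fell and 3 that rose, and 11 of its calls were shared with the 92 reported. Without a filter 340 fell and 235 rose over 19914 genes tested. H19 kept its difference of -5.30 and its SE of 0.15 there, yet its p in limma was far lower. Limma's p-values thus depend on the variance shared across genes. Adding 0.1 in place of 1 shared 91 calls and upper-quartile scaling 87. Of the 5 members, 2 were lower in T KO at TS12 and 1 at TS13 with a filter of 20 FPKM, which removes genes. The member counts of higher genes, T KO at TS12 (Dlk1) and Tbx6+ titled KO (Rian), were 0 with 5 added or a filter of 20 FPKM. T+ Sox2+ against T+ had 0 lower with 5 added, and T+ Sox2+ against Sox2+ had 1 higher (Dlk1) with 0.1 added. At 5 FPKM, 9 cells had Rian, 9 Mirg, 3 Rtl1 and 8 Dlk1; at 1 FPKM, 5 had Rtl1 and 16 Dlk1. The coefficient of Mirg with Rtl1 over cells changed sign, 0.10 as Pearson's r and -0.03 as rho; the cause was not tested. The WT library of the other stage and upper-quartile scaling changed no count of members. No paired analysis was possible because each group has 1 library and no replicate number; in limma, stage was the block within which T KO was set against WT. With 1 library a group, the values describe these libraries; single-cell zeros cannot be weighed against depth.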
